A study of Mus musculus with 2 samples.

Results

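The genes described here are the colony-stimulating factors and the receptors of the same signalling family: the ligand genes Csf1 and Csf2 and the receptor genes Csf1r, Csf2ra, Csf2rb, Csf2rb2, Csf3r, Kit and Flt3. They were chosen by name, 9 genes of 55536 annotated genes in the table (22028 of them protein-coding), with 48 annotated transcripts. The cells were primary bone marrow-derived macrophages of mouse strain C57BL/6J, given lipid A, the part of bacterial lipopolysaccharide sensed by the receptor TLR4, at 100 ng/ml for 25 min. RNA of a fraction that the labels call nucleoplasmic in the description and nuclear elsewhere was depleted of ribosomal RNA and sequenced as total RNA. The data are 2 libraries of this 1 group, labelled biological replicates 1 and 2 and derived from the same donor entry, so an SD below (n = 2) measures the spread between these libraries, which may be technical. Since no untreated cells, whole-cell RNA or other times were analysed here, every value is a level and no induction was measured. The age and sex of the animals were not collected, per the labels, and the growth factor in the culture was not given in the sources used here.

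Colony-stimulating factors are secreted proteins that drive the survival, growth and differentiation of myeloid cells. Macrophage colony-stimulating factor (M-CSF, from Csf1) acts through the receptor tyrosine kinase CSF1R, on which most macrophages depend, and KIT and FLT3 are kinases of the same structural class that are best known on progenitors and, for KIT, on mast cells. Granulocyte-macrophage colony-stimulating factor (GM-CSF, from Csf2) binds an alpha chain encoded by Csf2ra, which signals with the common beta chain encoded by Csf2rb, a chain shared with the receptors for interleukin 3 and interleukin 5. The mouse has an additional beta chain gene, Csf2rb2, whose product serves interleukin 3, and Csf3r encodes the receptor for granulocyte colony-stimulating factor (G-CSF).

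Annotated genes held 13506939 estimated counts in replicate 1 and 17932332 in replicate 2, so that a gene at 0 counts may lie anywhere up to 0.222 and 0.167 CPM (estimated counts per 1e+06). All 8 listed macrophage markers were detected, led by Lyz2 (1648 ± 85.0 TPM), a lysozyme, and Mpeg1 (639 ± 149 TPM), a pore-forming protein. TPM is a level per transcript length, and a gene was called detected where both libraries reached 1 TPM. Of the markers of other cells, 2 of 9 neutrophil genes and 1 of 6 progenitor genes were detected, and none of the 7 mast cell and basophil, 6 dendritic cell, 4 lymphocyte and 5 fibroblast genes. RNA input differed, at 500 ng for replicate 1 and 1 µg for replicate 2. TPM was lower in replicate 2 for most genes: among the 14584 that reached 10 counts in each library, the log2 ratio of replicate 2 to replicate 1 had a median of -0.42.

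Of the 9 genes, 6 were detected, namely Csf1r, Csf2rb, Csf2rb2, Csf2ra, Csf3r and Csf1, while Kit, Csf2 and Flt3 fell below 1 TPM in at least 1 library. Over all protein-coding genes the share detected was 44.5%. The median over the 9 genes of log2(TPM + 1), detected or not, was 6.16 ± 0.40. It was 0.67 ± 0.22 over all protein-coding genes and 3.40 ± 0.33 over the detected ones. In bulk RNA, fewer cells of a type and less RNA per cell cannot be told apart, so these are levels per library and not per cell.

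**Figure D1:**
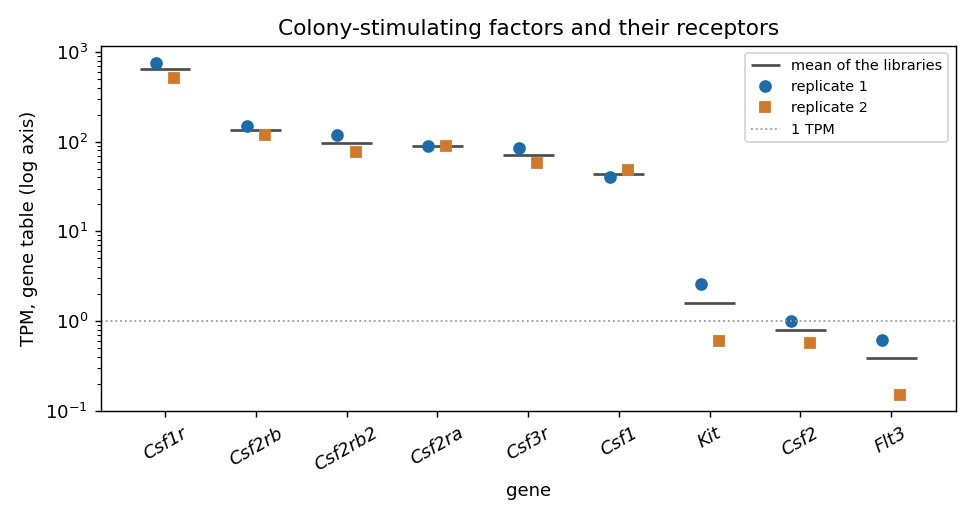
TPM of the 9 genes in each library on a log axis, in order of the mean (bar), with circles for replicate 1, squares for replicate 2 and a dotted line at 1 TPM. Csf1r stands at the top at 763 and 520 TPM, 5 genes lie between 40.0 and 150 TPM in both libraries, and Kit, Csf2 and Flt3 lie near or below the line.

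Csf1r, the M-CSF receptor gene (chromosome 18, 61100598 to 61132149, plus strand, mm10), was the highest of the 9. It stood at 763 TPM in replicate 1 and 520 in replicate 2 (642 ± 172 TPM), rank 32 among protein-coding genes by mean TPM. Both Csf1r values lay above every value of the other 8 genes. Its estimated counts, 20649 and 34275, ordered the libraries the other way: 1529 CPM in replicate 1 and 1911 in replicate 2.

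The transcripts of Csf1r differed in how they ordered the libraries. Csf1r-205 is a coding model of 416 bases and 3 exons whose 3′ end is marked as incomplete, and its last exon ends 2 bases past exon 3 of the full-length Csf1r-201. It was assigned 1080 counts in replicate 1 and 763 in replicate 2, which, divided by its short length, gave 391.8 and 143 TPM. That was 51.3% and 27.4% of the gene's TPM. Csf1r-201 (3870 bases) held 170 and 189 TPM from 8487 and 15962 counts, and Csf1r-202 (4701 bases) held 166 and 156 TPM from 10189 and 16197 counts.

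Without transcripts under 500 bases, a cut chosen after seeing the data, Csf1r stood at 372 and 377 TPM (374 ± 3.77 TPM). The libraries then lay close together, and the level was lower than the gene total in both. Among the 6 detected genes, Csf1r was the 1 with at least 25% of its TPM in transcripts under 500 bases in both libraries, a state found for 4.05% of detected protein-coding genes. The alignment-free table, made from the reads without an alignment, placed 53.8% and 36.1% of Csf1r TPM in Csf1r-205, in the same order of libraries. How many molecules end where Csf1r-205 ends was not tested, since the deposited tables hold no read positions.

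Csf1r-201 and Csf1r-202 have the same coding length (2931 bases) and differ at both ends. The last exon is 1846 bases in Csf1r-202 and 831 in Csf1r-201, and Csf1r-201 has an additional first exon, 22 exons against 21. The ratio of Csf1r-201 to Csf1r-202 was 1.02 and 1.21 in TPM from the alignment and 4.14 and 7.69 by the alignment-free values. The ratio of these models, which mixes both differences, therefore depended on the quantifier. The annotated 3′ end of Csf1r shares 873 bases with Hmgxb3 on the opposite strand, a gene at 22.3 and 17.3 TPM (19.8 ± 3.55 TPM). The strand setting of the counting was not given in the sources used here, so the share of either gene in these bases is uncertain. Of the Csf1r models only Csf1r-202 reaches these bases, so the uncertainty also bears on the ratio of Csf1r-201 to Csf1r-202.

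Upstream, the noncoding model Csf1r-206, whose first exon begins 4974 bases before Csf1r-201, had 0 and 1 counts. The nearest upstream gene, Pdgfrb, which encodes a platelet-derived growth factor receptor of the same kinase class, had 3 and 1 counts. The retained-intron model Csf1r-204 held 35.8 and 31.7 TPM. RNA annotated ahead of the main Csf1r start was thus close to the limit of counting.

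**Figure D2:**
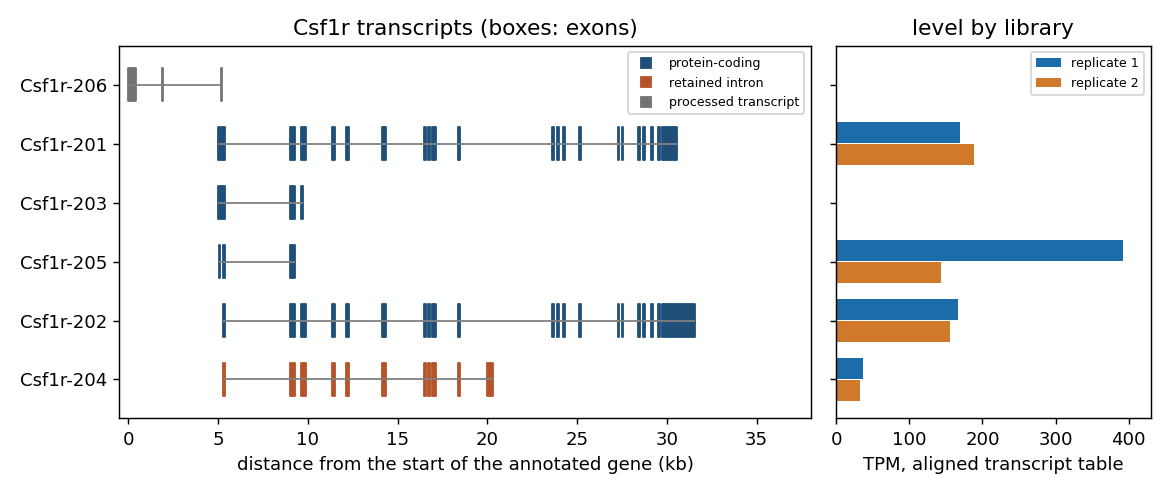
Left, the 6 annotated Csf1r transcripts with exons as boxes, by distance from the start of the annotated gene in kb; right, TPM of each transcript in replicate 1 (blue) and replicate 2 (orange). The short Csf1r-205 has the longest bar in replicate 1 (391.8 TPM) and a shorter one in replicate 2 (143 TPM), while Csf1r-201 and Csf1r-202 lie between 156 and 189 TPM in both.

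Csf1, the gene of M-CSF (chromosome 3, 107741048 to 107760469, minus strand), stood at 40.0 TPM in replicate 1 and 47.8 in replicate 2 (43.9 ± 5.51 TPM), from 1722 and 2997 counts. It was the 1 gene of the 9 whose TPM was higher in replicate 2. Both libraries thus held RNA of the ligand as well as of its receptor, and Csf1r exceeded Csf1 by 19.1-fold and 10.9-fold in TPM. These folds include the short Csf1r-205. Without transcripts under 500 bases, Csf1r stood at 372 and 377 TPM against 40.05 and 47.8 TPM for Csf1, a smaller excess in both libraries.

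Csf1 is known for splicing within exon 6, which decides between a secreted form and a form that stays on the cell surface. The models with the full exon 6 of 1016 bases, Csf1-201 and Csf1-203, together held 66.8% and 51.9% of Csf1 TPM (59.3 ± 10.6%). The models with a shortened exon 6, Csf1-202 and Csf1-204, held 17.7% and 26.4% (22.1 ± 6.18%). Full exon 6 led in both libraries by the alignment. By alignment-free TPM the order was kept in replicate 1, at 37.7% against 31.9%, and turned in replicate 2, at 28.8% against 37.2%. The turn was not seen in alignment-free counts. In replicate 2, Csf1-201 and Csf1-203 had 1387 and 658 of these, against 1102 for Csf1-202 and 328 for the 821-base Csf1-204. The retained-intron model Csf1-206, whose last exon of 1437 bases contains the full exon 6, is in neither group. It held 9.47% and 11.0% of alignment-free TPM.

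Csf1-201, the longest model, led the gene in both libraries with 60.9% and 46.0% of TPM. Csf1-202 held 12.8% and 12.7%, Csf1-203 5.87% and 5.92%, and Csf1-205, whose 3′ end is incomplete, 5.36% and 7.10%. Csf1-204 held 4.92% and 13.8% on 16.3 and 96.3 counts, and the retained-intron model Csf1-206 held 10.2% and 14.6%. The share of Csf1-201 was thus lower in replicate 2, and those of Csf1-204 and Csf1-206 were higher there.

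The 250 bases ahead of the Csf1 start are shown because they hold a match to the kappa B motif, the sequence bound by the NF-kB factors that act downstream of TLR4. Capitals mark the match, at bases -154 to -145 from the start. The sequence is from RefSeq, GRCm38.p6, chr3:107760470-107760719, minus strand, written 5′ to 3′.
Csf1 upstream: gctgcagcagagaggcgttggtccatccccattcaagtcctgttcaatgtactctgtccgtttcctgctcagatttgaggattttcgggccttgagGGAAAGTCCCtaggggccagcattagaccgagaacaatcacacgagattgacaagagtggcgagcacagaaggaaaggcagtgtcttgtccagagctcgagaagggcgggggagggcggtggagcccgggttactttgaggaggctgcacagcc
A promoter window, from 250 bases before to 50 after a RefSeq start, was found for 7 of the 9 genes, with 8 windows in all, and for neither Csf1r nor Csf2rb. On either strand, kappa B matched in Csf1 and Csf3r, and it matched in 8.46% of 32851 windows of the same length. GAGGAA, the core of sites for the myeloid factor PU.1, matched in Csf2ra, Csf2rb2, Csf3r and Kit, and in 28.3% of all windows. The Csf3r window covers the start of Csf3r-202 and not that of the leading model Csf3r-201, which begins 2742 bases past the gene's start. TGANTCA (AP-1, 7.81% of windows), TGTGGT (Runx, 16.8%) and TATAAA (13.6%) matched in none of the windows of these genes. The RefSeq start used for the Csf2 window lies 232 bases upstream of the GENCODE start, and the window ends before the GENCODE start. The bases next to the GENCODE start of Csf2 were thus not searched. A match describes letters and not binding, which was not measured here.

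Csf2, the gene of GM-CSF (chromosome 11, 54247271 to 54249667, minus strand), had 8 counts in each library, or 1.00 and 0.570 TPM (0.785 ± 0.304 TPM). The exact 95% Poisson interval of 8 counts runs from 3.45 to 15.8 and covers counting error only. The antisense gene that overlaps it, Gm12223, had 0 counts in both libraries. Csf2 was thus near the limit of counting at 25 min, and Csf1 had 215 and 375 times its counts. The alignment-free table gave Csf2 23.9 and 12.4 counts.

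The GM-CSF receptor genes Csf2ra and Csf2rb, and the related Csf2rb2, were well above Csf2. Csf2ra, the alpha chain (chromosome 19, 61223957 to 61228429, minus strand), stood at 90.1 and 89.3 TPM (89.7 ± 0.594 TPM), nearly equal in both libraries. Csf2rb, the common beta chain (chromosome 15, 78325752 to 78353847, plus strand), stood at 150 TPM in replicate 1 and 119 in replicate 2 (135 ± 21.7 TPM). Csf2rb2, the interleukin 3 beta chain (chromosome 15, 78282507 to 78305721, minus strand), stood at 118 and 77.7 TPM (97.9 ± 28.6 TPM).

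The near-equal totals of Csf2ra were made up of different transcripts. The coding model Csf2ra-201 held 44.0% of TPM in replicate 1 and 26.7% in replicate 2, from 887 and 911 counts. Retained-intron models, which keep an intron in the RNA, held 33.8% and 48.0% of the gene's counts (40.9 ± 10.1%), but 38.7% and 36.8% of its TPM, so their difference between libraries was in counts and not in TPM. Csf2ra-202 was the largest of these in counts, at 319 and 786. The noncoding Csf2ra-204, of 330 bases, held 17.2% and 30.9% of TPM from 25.3 and 94.3 counts, and it replaced Csf2ra-201 as the leading model in replicate 2. The alignment-free table gave the same leaders and a retained-intron share of 36.2% and 49.9% of counts. Models under 500 bases held 17.2% and 35.2% of Csf2ra TPM, and without them the gene stood at 74.6 and 57.8 TPM (66.2 ± 11.9 TPM), with a mean below that of Csf3r.

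Retained-intron models were annotated for 5 of the 9 genes, and Csf2ra was the 1 of these 5 with at least 25% of its counts in them in both libraries. Over the 6881 protein-coding genes that have such a model and reached 10 counts in each library, 33.5% reached that share, and the median share was 17.4% with quartiles at 5.84% and 37.0%. By TPM, Csf2ra and Csf2rb (37.6% and 35.9%) both reached it, 2 of the 5 genes, against 49.3% of the same 6881 genes. Csf2rb had 20.0% and 15.5% of counts in retained-intron models (17.8 ± 3.20%), most of it in Csf2rb-205, which held 1415 and 1398 counts. Csf1 had 6.29% and 10.6% (8.43 ± 3.03%), Csf1r 4.32% and 3.93% (4.13 ± 0.276%), and Kit 20.7% and 6.06% on 19.1 and 4 counts. In counts, Csf1 and Csf2ra thus had the larger share in replicate 2, and Csf1r, Csf2rb and Kit in replicate 1. In TPM the order turned for Csf2ra and for Csf1r (4.69% and 6.10%).

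**Figure D3:**
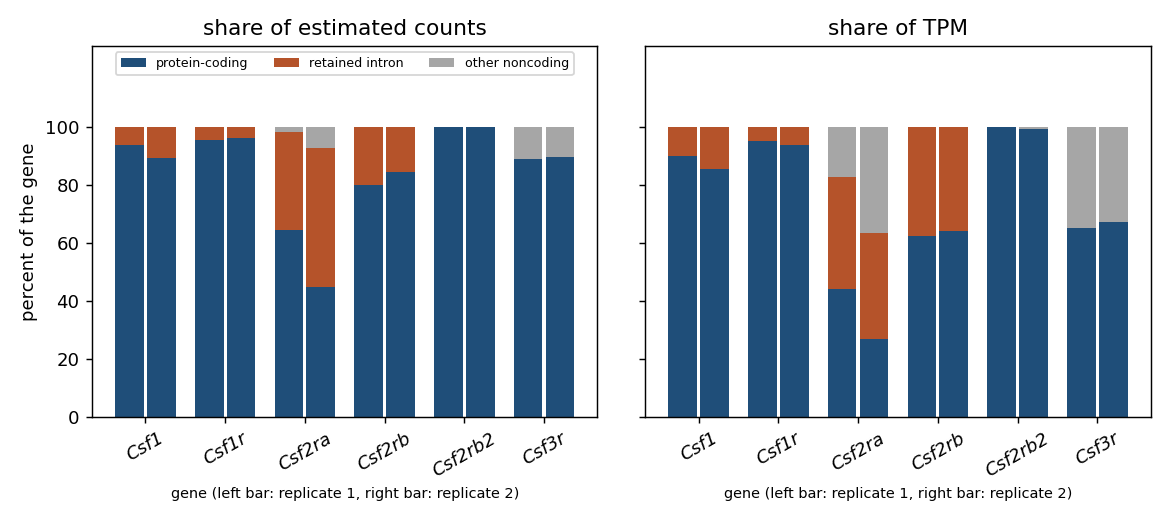
Share of estimated counts (left) and of TPM (right) in protein-coding, retained-intron and other noncoding transcripts of the 6 detected genes, with the left bar of each pair for replicate 1 and the right bar for replicate 2. Csf2ra has the smallest coding share on both scales (64.4% and 44.7% of counts), and Csf2rb2 is nearly all coding.

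Csf2rb and Csf2rb2 are neighbouring near-copies, so their separate levels rest on the bases that differ. The coding part of Csf2rb-201 is 2688 bases and that of Csf2rb2-201 is 2634. Aligned, they had 2507 identical and 116 mismatched bases, an identity of 95.6% outside 76 gap positions. Of the 31-base words in the coding part of Csf2rb-201, 40.5% also occur in a Csf2rb2 transcript, and 40.4% the other way. The stretch of 60 coding bases with the most mismatches, 12, is shown because reads there tell the genes apart, with capitals for the bases that differ. Both stretches cross an intron and come from GENCODE M21 transcripts, written 5′ to 3′. The Csf2rb stretch covers coding bases 1360 to 1419 (chr15:78346418-78346680, plus strand), and the Csf2rb2 stretch covers 1357 to 1416 (chr15:78286766-78287028, minus strand).
Csf2rb: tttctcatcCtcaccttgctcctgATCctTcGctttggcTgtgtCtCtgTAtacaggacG
Csf2rb2: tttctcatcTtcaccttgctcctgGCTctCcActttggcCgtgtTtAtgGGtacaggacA
The longest identical run is 242 bases, from coding base 2083 in both. It holds an annotated microRNA hairpin of the same sequence in each copy, Mir7676-2 in Csf2rb (chr15:78348599-78348660, plus strand) and Mir7676-1 in Csf2rb2 (chr15:78284788-78284849, minus strand), shown because no read inside it can be placed by sequence. Capitals mark the seed, bases 2 to 8 of the 5p mature form, and the sequence is from RefSeq, GRCm38.p6.
Mir7676 hairpin: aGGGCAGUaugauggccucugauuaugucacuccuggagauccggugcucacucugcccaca
Both microRNA genes were listed at 0 counts in both libraries. This does not show absence, since the hairpin is 62 bases and the labels give a size range of 250 to 400.

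Csf2rb held 55.9% of the summed TPM of the pair in replicate 1 and 60.5% in replicate 2 (58.2 ± 3.25%), and 76.7% and 74.2% by alignment-free TPM. In alignment-free counts its share was 55.0% and 58.3%. Its alignment-free TPM included the short models Csf2rb-207, Csf2rb-203 and Csf2rb-208, of 370, 328 and 340 bases. They held 49.1, 33.2 and 29.9 TPM in replicate 1 and 9.71, 13.1 and 0 in replicate 2. The full-length models alone were closer: Csf2rb-201 over Csf2rb2-201 was 0.791 and 1.02 in TPM, and 0.874 and 1.14 in alignment-free TPM. Csf2rb exceeded Csf2rb2 in gene TPM in both libraries, while the full-length models changed order between them. In counts, Csf2rb held 49.7% and 54.3% of the pair, below Csf2rb2 in replicate 1. Without transcripts under 500 bases Csf2rb stood at 139 and 103 TPM, and the ranges of the pair overlapped. Most of the rest of Csf2rb lay in its retained-intron models, Csf2rb-205 (30.6% and 22.3% of TPM) and the short Csf2rb-207 (7.03% and 13.6%). Csf2rb2-201 made up 98.6% and 96.0% of its gene.

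Csf3r, the G-CSF receptor gene (chromosome 4, 126024550 to 126044440, plus strand), best known in neutrophils, stood at 85.9 and 57.5 TPM (71.7 ± 20.1 TPM), from 2561 and 2958 counts. The neutrophil markers were low in the same libraries: 2 of 9 were detected, S100a9 (1.65 ± 0.0990 TPM) and Ngp (1.13 ± 0.0566 TPM), the 9 genes summed to 6.11 and 4.01 TPM, and Ly6g was at 0 counts in both. Csf3r in either library therefore exceeded the sum of all listed neutrophil genes. The coding model Csf3r-201 led with 57.4% and 63.7% of TPM. The noncoding Csf3r-203 followed with 30.8% and 28.2%, which the alignment-free table gave as 14.4% and 0%. The coding Csf3r-202 held 7.71% and 3.49%, against 22.7% and 28.02% of alignment-free TPM. The noncoding Csf3r-204 held 4.04% and 4.64%, against 25.6% and 26.4%. Csf3r-201 also led by alignment-free TPM, with 37.3% and 45.6%. The low share of Csf3r-202, whose start the promoter window covers, thus depended on the quantifier.

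Kit, the receptor of stem cell factor (chromosome 5, 75574916 to 75656722, plus strand), stood at 2.56 TPM in replicate 1 and 0.6 in replicate 2 (1.58 ± 1.39 TPM), from 92 and 66 counts. In CPM it was 6.81 with an exact 95% Poisson interval of 5.49 to 8.35, and 3.68 with 2.85 to 4.68, so these counting intervals did not overlap. Retained-intron models held 58.4% of Kit TPM in replicate 1 and 10% in replicate 2. Kit-206, of 354 bases, held 20.2% of TPM in replicate 1 on 1 count, and Kit-205 held 26.2% on 5.76 counts. The full-length coding model Kit-201 held 1.07 and 0.540 TPM from 73.0 and 62.0 counts.

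Flt3, a receptor kinase of progenitors and dendritic cells (chromosome 5, 147330741 to 147400489, minus strand), stood at 0.620 and 0.150 TPM (0.385 ± 0.332 TPM), from 30 and 12 counts. In CPM this was 2.22 (1.499 to 3.17) and 0.669 (0.346 to 1.17), again without overlap of the counting intervals. The alignment-free table gave Flt3 more counts, 89.7 and 81.4, which lay closer together, so level and difference depended on the quantifier. Flt3-201, the coding model, held 75.01% and 72.0% of TPM by the alignment, while the noncoding Flt3-202 led in the alignment-free table with 59.6% and 82.2%. Gm26597, an antisense gene that overlaps Flt3, had 1 and 0 counts.

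The summed TPM of most lists of other cell types was lower in replicate 2, as was the TPM of most genes. The 6 progenitor genes summed to 5.20 and 2.15 TPM, with Meis1 (2.98 ± 1.38 TPM) the 1 detected and Cd34 at 0.285 ± 0.346 TPM. The 7 mast cell and basophil genes summed to 1.35 and 0.540 TPM, led by Hdc (0.610 ± 0.382 TPM) and Mcpt8 (0.125 ± 0.00707 TPM), with Fcer1a and Ms4a2 at 0 counts in both libraries. The 6 dendritic cell genes summed to 4.55 and 1.92 TPM, led by Clec9a (0.905 ± 0.474 TPM) and Zbtb46 (0.870 ± 0.481 TPM). The 5 fibroblast genes summed to 4.31 and 0.250 TPM, led by Dcn (2.71 and 0 TPM) and Col1a2 (0.710 and 0.160 TPM). The Dcn values rest on 5 and 0 counts and those of Col1a2 on 24 and 8. The 4 lymphocyte genes, led by Cd79a (0.165 ± 0.0636 TPM), summed to 0.250 and 0.340 TPM, and Cd3e was at 0 counts. With centring and a pseudocount of 1 TPM, both described below, the log2 ratios of countable markers were -0.30 for Meis1 and -0.07 for Hdc. Their median was -0.10 over 4 dendritic cell genes. The pseudocount holds down ratios at such levels, as for Hdc at 0.88 and 0.34 TPM, so these values do not show that centring removes the difference. Some markers went the other way, among them Mcpt8 (0.12 and 0.13 TPM). The part of such cells in the Kit and Flt3 values was not tested.

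In the order of mean TPM, Csf1r, Csf2rb, Csf2rb2, Csf2ra, Csf3r, Csf1, Kit, Csf2 and Flt3, the libraries did not separate 3 neighbouring pairs: Csf2rb2 and Csf2ra, Kit and Csf2, and Csf2 and Flt3. Csf2rb and Csf2rb2 separated narrowly, with the lower Csf2rb value at 119.2 TPM and the higher Csf2rb2 value at 118.1 TPM. The step from Csf1 to Kit was the widest between neighbours, 15.6-fold in replicate 1 and 79.7-fold in replicate 2.

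The libraries were compared gene by gene as the log2 ratio of replicate 2 to replicate 1 of TPM + 1, less the median of -0.42. Csf2 had too few counts. Of the other 8 genes, none passed 2-fold, against 1.71% of all 14584 genes, 1.22% with the higher value in replicate 2 and 0.487% with the lower. The ratio was 0.67 for Csf1, 0.41 for Csf2ra and 0.09 for Csf2rb, and -0.07 for Flt3, -0.13 for Csf1r, -0.15 for Csf3r, -0.17 for Csf2rb2 and -0.73 for Kit. Their median was -0.10. With 1 library on each side these are differences between libraries, with no test. The pseudocount of 1 TPM holds down the ratios of low genes: Flt3 could reach no lower than -0.27 even at 0 TPM in replicate 2. With a pseudocount of 0.1, chosen for single genes after seeing the data, Kit was at -1.39, past 2-fold, and Flt3 at -0.99, against 1.93% of all countable genes past 2-fold lower. Without a pseudocount or centring, TPM was 4.27-fold lower in replicate 2 for Kit and 4.13-fold lower for Flt3. For Kit, these larger differences rest in part on Kit-205 and Kit-206, with 5.76 and 1 counts in replicate 1 and 0 in replicate 2. Kit-201 alone stood at 1.07 and 0.540 TPM, and Kit at 6.81 and 3.68 CPM, both smaller differences.

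The ratio of Csf1 stayed above the median gene on each scale, at 0.58 in CPM and 0.29 in the alignment-free table. Csf2rb2 and Csf3r stayed below it, at -0.08 and -0.01 in CPM and -0.61 and -0.67 by the alignment-free values. Csf1r turned to 0.51 in CPM and to 0.44 without transcripts under 500 bases, and was -0.64 in the alignment-free table. Csf2ra was 0.34 in CPM, 0.06 without transcripts under 500 bases and -0.15 in the alignment-free table. Csf2rb was 0.18 in CPM and -0.84 in the alignment-free table, Kit was -0.55 and -0.06, and Flt3 was -0.76 and 0.77. The direction of a library difference was thus the same on these 4 scales for Csf1, Csf2rb2, Csf3r and Kit. It turned on at least 1 of them for Csf1r, Csf2ra and Csf2rb. The alignment-free sign of Flt3 was fixed by the pseudocount of 1 TPM. At 0.542 alignment-free TPM in replicate 1 (0.153 in replicate 2), Flt3 could not lie below the median gene, whatever its replicate 2 value. With the gene table's countable genes as reference for the alignment-free ratios, a choice made after seeing the data, Csf2ra was at 0.01. Kit turned to 0.10 there, and the other 6 genes kept their sign, which was again fixed for Flt3. The pseudocount also holds down both alignment-free ratios of Kit, whose alignment-free TPM was 1.76 in replicate 1 and 0.162 in replicate 2. The turn of Kit therefore does not show its direction.

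**Figure D4:**
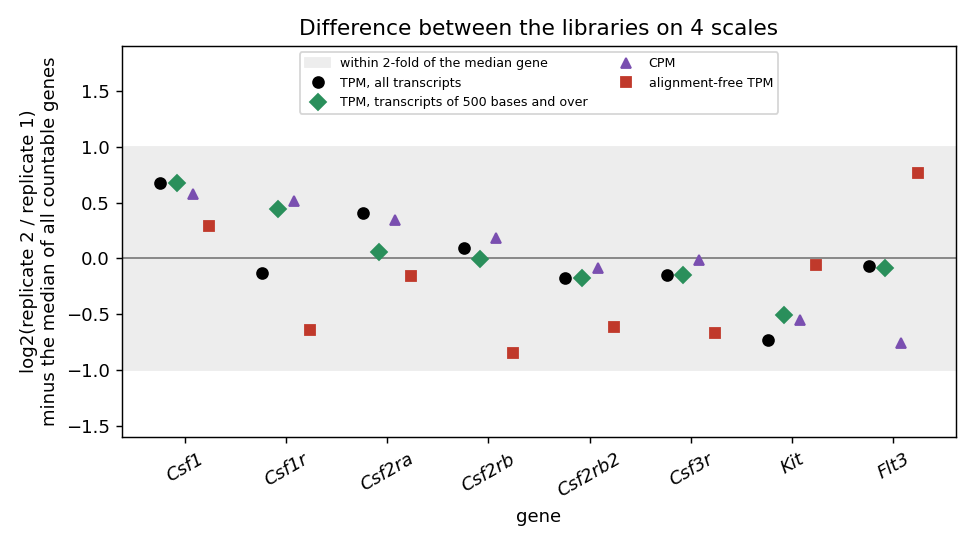
Log2 ratio of replicate 2 to replicate 1 for the 8 countable genes, less the median of all countable genes, on 4 scales: TPM, TPM in transcripts of 500 bases and over, CPM, and alignment-free TPM. All points lie within 2-fold of the median gene (grey band), Csf1 is above 0 and Csf2rb2, Csf3r and Kit are below 0 on each scale, and Csf1r lies on both sides of 0.

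Other genes of the pathway were described from 4 lists. Of 8 further ligands and receptor partners, 3 were detected: Il3ra (16.6 ± 4.07 TPM), the alpha chain that pairs with the beta chains for interleukin 3, Flt3l (7.34 ± 0.269 TPM), the FLT3 ligand, and Kitl (2.39 ± 0.552 TPM), the KIT ligand. Il5ra, the interleukin 5 alpha chain, had 2 and 0 counts, and Il3 had 0 in both. RNA of the interleukin 3 alpha chain was thus present beside both beta chains, and that of the interleukin 5 alpha chain was at the limit of counting. In the alignment-free table Il5ra had 120 and 68.5 counts.

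Of 24 genes that act next to these receptors, 22 were detected, with a list median of log2(TPM + 1) of 4.74 ± 0.20. Inpp5d, the lipid phosphatase SHIP1, was highest at 118 ± 41.3 TPM, followed by the adaptor gene Tyrobp (97.6 ± 0.134 TPM) and Pik3r1, a regulatory subunit of phosphoinositide 3-kinase (92.3 ± 10.01 TPM). The lowest were the kinase gene Src (0.900 ± 0.0566 TPM) and Socs1, a feedback inhibitor of cytokine signalling (0.560 ± 0.0990 TPM). Of these 24, 13 had a centred library ratio above 0 and 11 below, and 1 passed 2-fold, Socs3 (59.1 and 98.0 TPM, ratio 1.14), another feedback inhibitor, which was named after its values were seen.

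All 9 transcription factor genes of the myeloid lineage were detected, with a median of 4.90 ± 0.26. Runx1 was highest at 121 ± 21.1 TPM, then Irf8 (45.2 ± 13.9 TPM) and Cebpb (39.5 ± 4.19 TPM), and Cbfb (16.1 ± 0.495 TPM) and Cebpa (12.6 ± 5.30 TPM) were lowest. Of 5 related receptor tyrosine kinase genes, 1 was detected, the vascular endothelial growth factor receptor gene Kdr (4.70 ± 0.799 TPM). Flt1 (0.185 ± 0.191 TPM), Pdgfra (0.130 ± 0.184 TPM), Flt4 (0.0950 ± 0.0495 TPM) and Pdgfrb (0.0250 ± 0.0212 TPM) lay below 1 TPM. Csf1r therefore stood far above its relatives Kit, Flt3 and these 5 genes in both libraries.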

How the data were processed

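Each library has a gene table and 2 transcript tables, made per library and not pooled. Estimated (expected) counts and TPM of genes and transcripts, and each transcript's percent of its gene's TPM, are values the authors computed from a transcriptome alignment (assembly mm10, annotation M21), per the deposited readme. Estimated counts and TPM in the other transcript table were made without an alignment, per the deposited readme, and that table is called alignment-free. The interval bounds of TPM in the deposited tables are treated as a score and are not used in the text. Names of the quantifiers and the strand setting were not given in the sources used here. Their columns carry names that RSEM and kallisto use.

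Tables were read with Python 3.11.15, pandas 2.3.3, numpy 2.4.6 and scipy 1.17.1. CPM is estimated counts per 1e+06 on annotated genes. A gene was detected where both libraries reached 1 TPM. Ratios used a pseudocount of 1 TPM and genes with at least 10 counts in both, minus their median. A count of 0 was read as up to 3 counts. Counting intervals are exact 95% Poisson intervals and cover counting error only, since reads are not independent molecules. With 1 group there was no test and no p-value.

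The genes, lists, motifs and rules were chosen with earlier results of these data known. Named genes were all 9 genes, the 3 highest and 2 lowest of each of 4 pathway lists, the 2 highest of each of 7 marker lists, genes that overlap the 9 and the neighbour of Csf1r, and transcripts with at least 5% of their gene's TPM in either library; others named are at 0 counts or are needed beside these. No gene with a like pattern was sought, since 2 libraries of 1 group hold no pattern. Alternatives were other minimums and pseudocounts, CPM, TPM rescaled after removing mitochondrial genes and those under 200 bases, the alignment-free table and each library alone. Leaving out transcripts under 500 bases, CPM and a pseudocount of 0.1 for single genes' ratios, and the alignment-free ratios with the gene table's countable genes as reference were chosen after seeing the data.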

Additional observations from a re-analysis of the deposited data

How the results depend on the processing

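The number of genes detected was 6 with a minimum of 5 TPM and in the alignment-free table, 8 with a minimum of 10 counts and 9 with a minimum of 0.1 TPM. With each library alone it was 6 to 8. The median level of the 9 genes, 6.16 on the log2(TPM + 1) scale, was 4.85 as a mean over genes, 6.67 in rescaled TPM, 7.19 in CPM and 4.92 by the alignment-free values, and 5.87 to 6.44 with each library alone. The cause of the lower alignment-free level was not tested. The median library ratio, -0.10, was -0.52 with no centring, 0.085 in CPM, -0.15 by the alignment-free values over the 9 genes countable there, and -0.22 by those values over the 8 genes with the gene table's countable genes as reference. It cannot be given without either library. The share of the leading transcript moved by more than the spread between libraries for 5 of 9 genes in the alignment-free table, and the library ratio of all 8 countable genes moved by more than 0.1 there and with a pseudocount of 0.1. The retained-intron share moved by more than the spread between libraries for 4 of 5 genes when taken from TPM. Leaving out transcripts under 500 bases moved the TPM of 2 of 9 genes by more than that spread. Depth limits Csf2, Kit and Flt3 most, with 8 to 92 counts. No paired analysis was possible because both libraries belong to 1 group.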
